A study of Mus musculus with 18 samples.

Results

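The genes described here are 34 chromatin regulators: the subunits of Polycomb repressive complexes PRC2 and PRC1, the DNA methyltransferases and TET dioxygenases, and the classical histone deacetylases. They were listed by name and matched by gene symbol, or by Entrez identifier for older aliases, to the probes of a mouse whole-genome expression array. A probe was found for 32 of the 34. Tet2 and Hdac1 had no probe of that name in the annotation used and were not analysed here. The 32 genes are among 16319 genes tested. RNA came from 4 subpopulations sorted by flow cytometry from mammary glands of FVB/N female mice without any transgene or treatment: MaSC-enriched cells (CD29hi CD24+ CD61+), luminal progenitor cells (CD29lo CD24+ CD61+), mature luminal cells (CD29lo CD24+ CD61-) and stromal cells (CD29lo CD24-). The MaSC-enriched gate is not a pure stem cell fraction, since myoepithelial cells and probably basal progenitors fall into it too. Lineage antibodies to CD31, CD45 and TER119, which mark endothelial and blood cells, were part of the stain. Every sample is a pool of 3 to 5 mice on 1 array. Each epithelial subset was profiled in all 5 pools and stroma in pools 1, 2 and 3, which makes 5, 5, 5 and 3 arrays. Pools 1 to 3 were hybridized in a first batch and pools 4 and 5 in a second batch, which has no stromal array.

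Polycomb proteins keep genes silent by modifying histones. PRC2 methylates histone H3 at a lysine that PRC1 subunits of the chromobox family recognize, and PRC1 in turn attaches ubiquitin to a core histone and compacts chromatin. DNA methyltransferases place methyl groups on cytosine, TET enzymes oxidize them as a step toward removal, and histone deacetylases strip acetyl groups from histones and from many other proteins. In the mouse mammary gland Ezh2 and Bmi1 are known as regulators of epithelial progenitor growth, and Dnmt1 as a requirement for normal stem and progenitor cell numbers.

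Values are log2 intensities, on which a difference of 1 is a doubling. A probe was taken as above background on an array when it exceeded the level of olfactory and vomeronasal receptor probes there (5.10 to 5.44). Of the 32 genes, 24 were above background on all 18 arrays, and Phf1, Dnmt3a and Hdac9 were above it on fewer than 9. All 7 basal markers, among them Krt14, Acta2 and Trp63, were called higher in MaSC-enriched cells than in either luminal subset. All 6 luminal markers were called higher in both luminal subsets than in stroma, and all 7 fibroblast markers were lower in MaSC-enriched and in luminal progenitor cells than in stroma. MaSC-enriched arrays 3 and 4 and luminal progenitor arrays 3 and 4 stood apart through markers of blood vessels. Their mean over 6 endothelial genes was 11.55 and 11.05 in the MaSC-enriched and 9.89 and 10.54 in the luminal progenitor arrays, whereas the other 6 arrays of these subsets ranged from 6.79 to 9.08. Markers of other epithelial subsets moved on some of the same arrays, as did those of fibroblasts and adipocytes. The mean of 5 luminal progenitor markers was 11.14 and 10.76 on MaSC-enriched arrays 3 and 4 and 8.24 to 8.88 on the other MaSC-enriched arrays, and that of 7 fibroblast markers was 11.04 and 11.08 there and 9.10 to 9.68 on the others. The mean of 7 basal markers was 9.36 and 8.74 on luminal progenitor arrays 3 and 4 and 6.76 to 7.99 on the others. That of 4 adipocyte markers was 7.10 and 6.66 on MaSC-enriched arrays 3 and 4, against 4.91 to 5.60 on the others. On luminal progenitor arrays 3 and 4 it was 6.06 and 6.65, against 4.82 to 4.90. Without these 4 arrays, a choice made after seeing the data, all 17 calls between epithelial subsets described here were kept. Against stroma 3 calls were lost. They were Ezh1 (-0.48, adjusted p = 0.194) and Phf19 (0.72, adjusted p = 0.136) in MaSC-enriched cells and Phc2 (0.56) in luminal progenitor cells. The luminal progenitor array of pool 4 also had the highest background of all arrays (5.44) and the lowest array weight (0.171). By luminal markers the mature luminal array of pool 4 stood apart as well. Its luminal progenitor marker mean was 11.88, against 10.47 to 11.06 on the other mature luminal arrays and 11.89 on luminal progenitor array 4. Its mean of mature luminal markers, 10.38, was the lowest of its subset, the others being 10.99 to 11.76.

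A gene was called in a comparison when its adjusted p was below 0.05 and its fold-change above 1.5 (limma, adjusted over all probes and all 6 comparisons). By this rule 20 of the 32 genes were called in at least 1 comparison (62.5%, against 52.6% of all genes) and 12 in none. Of 62 calls, 45 were against stroma (72.6%, against 63.4% of the calls of all genes). MaSC-enriched cells differed from luminal progenitor cells in 3 genes that were higher and 3 that were lower (9.38% each, against 11.3% higher and 10.9% lower over all genes tested). Against mature luminal cells, MaSC-enriched cells had 3 genes higher and 6 lower (9.38% and 18.8%, against 13.7% and 13.8% of all genes). Luminal progenitor and mature luminal cells differed in only 2 of these genes, 1 higher and 1 lower in the progenitors (3.12% each, against 6.42% and 4.67% of all genes). Of these 6 shares only the 18.8% lay above that of all genes.

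Against stroma the balance was upward. MaSC-enriched cells had 11 genes higher and 3 lower than stromal cells (34.4% and 9.38%, against 16.1% and 14.3% of all genes). Luminal progenitor cells had 11 higher and 4 lower (34.4% and 12.5%, against 19.8% and 16.5%). Mature luminal cells had 12 higher and 4 lower (37.5% and 12.5%, against 21.7% and 16.6%). The median log2 fold change of the 32 genes was 0.07, 0.06 and 0.17 in these comparisons, close to the 0.03, 0.04 and 0.06 of all genes. The shares of all genes are not matched for brightness. Of the 32 genes 24 were above background on all 18 arrays, whereas any gene above it on at least 1 array was tested. With cyclic loess normalization the mature luminal split became 8 higher and 6 lower, beside 16.5% higher and 19.9% lower of all genes. In sorted bulk RNA, fewer cells of a type and less RNA per cell cannot be told apart. In all, 8 genes, Ezh2, Suz12, Phc2, Dnmt1, Dnmt3b, Hdac3, Hdac6 and Hdac11, were called higher than stroma in all 3 epithelial subsets, where 9.69% of all genes were. Averaging the probes of a gene lost the Suz12 and Dnmt3b calls in all 3 subsets, and the Hdac3 calls in MaSC-enriched and mature luminal cells. Cyclic loess lost Suz12 and Hdac3 in MaSC-enriched, Phc2 in luminal progenitor, and Dnmt3b and Hdac3 in mature luminal cells. Hdac7 alone was lower than stroma in all 3, where 9.93% of all genes were.

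**Figure D1:**
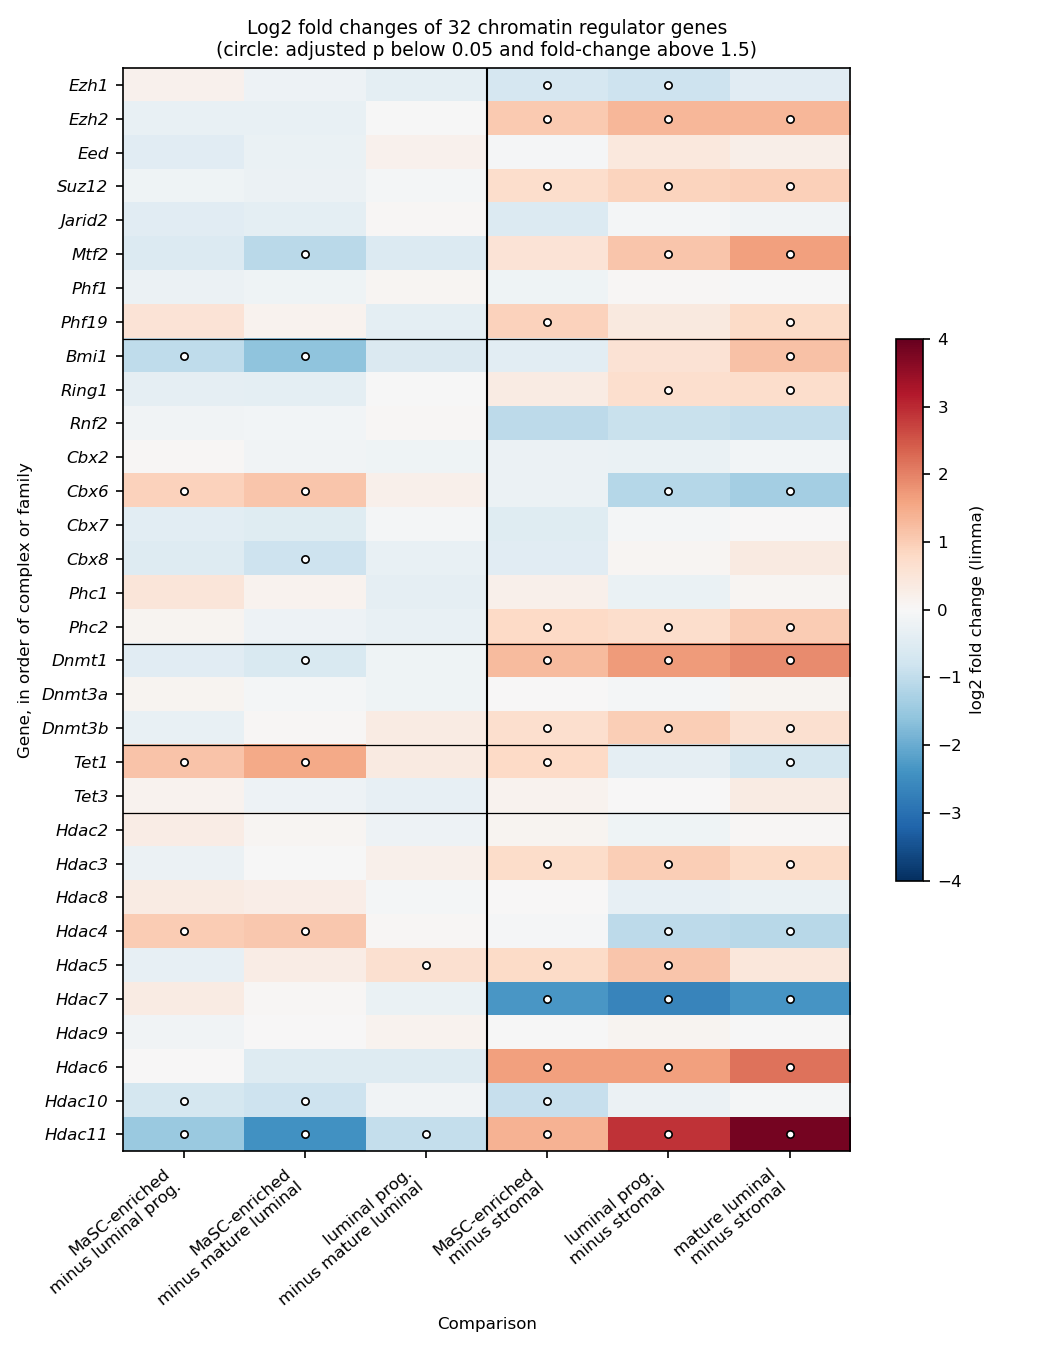
Log2 fold changes of the 32 genes (rows, in order of complex or family) in the 6 comparisons (columns, first-named subset minus the second), with circles where a gene was called. The 3 comparisons within the epithelium hold 17 circles and the 3 against stroma 45, and Hdac11 and Hdac7 have the deepest colors.

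PRC2 was described first, beginning with its paired catalytic subunits. Ezh2 is the main methyltransferase of dividing cells, and Ezh1 is its relative in resting tissue. Ezh2 read 10.24, 10.27, 9.65, 8.75 and 10.20 in the MaSC-enriched arrays, 10.38, 10.60, 10.34, 8.74 and 9.73 in the luminal progenitor arrays, 9.76, 10.77, 10.61, 9.62 and 9.97 in the mature luminal arrays and 8.92, 9.09 and 8.90 in the stromal arrays. The stromal arrays lay lowest, except for pool 4, whose MaSC-enriched and luminal progenitor arrays were lower still. Ezh2 was 2.04-fold higher in MaSC-enriched cells than in stroma (log2 fold change 1.03 ± 0.23 SE, adjusted p = 0.00175), 2.53-fold in luminal progenitor cells (1.34 ± 0.22, adjusted p = 8.75e-05), as well as 2.53-fold in mature luminal cells (1.34 ± 0.21, adjusted p = 3.94e-05). A second kept Ezh2 probe was called higher in the same 3 comparisons. Among the epithelial subsets no difference passed, the largest being -0.31 ± 0.23 for MaSC-enriched against mature luminal cells (adjusted p = 0.374).

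Ezh1 ran the other way. It read 6.98, 6.41, 6.11, 5.53 and 5.52 in the MaSC-enriched arrays, 6.66, 6.01, 6.04, 5.36 and 5.26 in the luminal progenitor arrays, 7.12, 6.40, 6.36, 5.89 and 6.04 in the mature luminal arrays and 7.08, 7.01 and 6.92 in the stromal arrays. The luminal progenitor arrays all lay below the stromal arrays, and the array of pool 1 was the highest of each epithelial subset. Ezh1 was 1.79-fold lower in luminal progenitor cells than in stroma (log2 fold change -0.84 ± 0.20, adjusted p = 0.00297) and 1.60-fold lower in MaSC-enriched cells (-0.68 ± 0.21, adjusted p = 0.0194). The values of pools 4 and 5 were low in all 3 epithelial subsets, with means of 5.52, 5.31 and 5.96 against 6.50, 6.24 and 6.63 in pools 1 to 3. The MaSC-enriched call did not survive leaving out MaSC-enriched replicate 3 (-0.61, adjusted p = 0.0518), MaSC-enriched replicate 4 (-0.58, adjusted p = 0.055) or stromal replicate 2 (-0.60, adjusted p = 0.0995), and it was also lost without the pool as a block (-0.77, adjusted p = 0.0595). Stroma was hybridized only in the first batch, and within that batch alone the MaSC-enriched difference was not called either (-0.50, adjusted p = 0.1). It fell below the fold threshold with batch or pool as a fixed term (-0.54 each). With BeadChip as a fixed term neither the MaSC-enriched (-0.30, adjusted p = 0.211) nor the luminal progenitor difference (-0.55) was called.

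Suz12 and Eed are the subunits that hold the PRC2 core together. Suz12 ranged from 11.54 to 12.05 in MaSC-enriched, 11.37 to 12.16 in luminal progenitor and 11.97 to 12.18 in mature luminal arrays, against 11.07 to 11.21 in stroma, with no overlap between any epithelial subset and stroma. Its log2 fold changes over stroma were 0.72 ± 0.10, 0.88 ± 0.10 and 0.96 ± 0.09 (adjusted p = 2.43e-05, 1.05e-06 and 1.51e-07). A second, dimmer Suz12 probe, above background on 14 arrays, gave -0.13, 0.03 and 0.18, and the average of the probes was not called. With cyclic loess normalization the MaSC-enriched difference was 0.54, below the fold threshold. Eed, which reads the methylated histone, was called in no comparison. It ranged from 9.10 to 10.88 across epithelial arrays and from 9.998 to 10.37 in stroma, and pools 4 and 5 were below pools 1 to 3 in every epithelial subset (9.32, 10.02 and 9.37 against 10.46, 10.75 and 10.70 in the MaSC-enriched, luminal progenitor and mature luminal means).

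Of the PRC2 accessory subunits, Mtf2 differed most. Mtf2 is a Polycomb-like protein that guides PRC2 to CpG-rich DNA. It read 9.95, 10.03, 10.39, 10.18 and 10.15 in MaSC-enriched arrays, 10.76, 10.61, 10.64, 11.05 and 10.44 in luminal progenitor arrays, 11.29, 11.38, 11.13, 10.86 and 11.03 in mature luminal arrays and 9.53, 9.57 and 9.60 in stromal arrays. The order of the subsets was therefore mature luminal, luminal progenitor, MaSC-enriched and stroma, and only the luminal progenitor and mature luminal arrays overlapped. Mtf2 was 2.13-fold lower in MaSC-enriched than in mature luminal cells (-1.09 ± 0.11, adjusted p = 3.56e-07), by -1.15 in the first batch and -0.78 in the second. Over stroma it was 3.14-fold higher in mature luminal cells (1.65 ± 0.10, adjusted p = 2.69e-10) and 2.16-fold higher in luminal progenitor cells (1.11 ± 0.11, adjusted p = 1.56e-07). The neighboring steps were smaller: -0.55 ± 0.12 for MaSC-enriched against luminal progenitor cells (adjusted p = 0.0014), -0.54 ± 0.11 for luminal progenitor against mature luminal cells (adjusted p = 0.000689) and 0.56 ± 0.11 for MaSC-enriched cells against stroma (adjusted p = 0.000735), all below a fold-change of 1.5. Both other Mtf2 probes were called lower in luminal progenitor than in mature luminal cells, at -0.79 and -0.70, and higher in MaSC-enriched cells than in stroma, at 0.67 and 0.65.

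Phf19, another Polycomb-like protein, was dim. It ranged from 5.38 to 7.54 in MaSC-enriched, 4.91 to 6.55 in luminal progenitor and 5.79 to 7.02 in mature luminal arrays, against 5.54 to 6.11 in stroma, so that every epithelial range overlapped the stromal one. It was called higher than stroma in MaSC-enriched cells (0.93 ± 0.27, adjusted p = 0.0118) and in mature luminal cells (0.78 ± 0.24, adjusted p = 0.0178). Without stromal replicate 2 both calls were lost (0.75, adjusted p = 0.101, and 0.60, adjusted p = 0.168), and the mature luminal call was lost as well without mature luminal replicate 3 (0.65, adjusted p = 0.0786) or stromal replicate 1 (0.77, adjusted p = 0.0679). Neither call held without the pool as a block (0.96, adjusted p = 0.0527, and 0.81, adjusted p = 0.0688). Jarid2 and Phf1 were not called: Jarid2, a DNA-binding partner of PRC2, was above background on 11 of 18 arrays (4.64 to 5.999), and Phf1 on 4 (4.57 to 5.80).

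PRC1 contains the ligases Ring1 and Rnf2, Bmi1 as the subunit that activates them, chromobox (Cbx) proteins that bind methylated histone H3, and the polyhomeotic proteins Phc1 and Phc2. Bmi1 read 8.03, 7.55, 7.58, 5.91 and 7.64 in MaSC-enriched arrays, 8.87, 8.91, 8.43, 6.59 and 7.74 in luminal progenitor arrays, 9.18, 9.36, 9.04, 8.28 and 9.03 in mature luminal arrays and 8.28, 7.82 and 7.86 in stromal arrays. Within every pool the MaSC-enriched array was the lowest of the 3 epithelial arrays, and no MaSC-enriched array reached the mature luminal range. Bmi1 was 3.02-fold lower in MaSC-enriched than in mature luminal cells (-1.60 ± 0.24, adjusted p = 2.87e-05), by -1.48 in the first and -1.88 in the second batch. It was 2.01-fold lower in MaSC-enriched than in luminal progenitor cells (-1.01 ± 0.25, adjusted p = 0.00419), by -1.02 in the first and -0.39 in the second batch. That difference was not called without array weights (-0.77, adjusted p = 0.0854). Bmi1 was also 2.27-fold higher in mature luminal cells than in stroma (1.18 ± 0.21, adjusted p = 0.000219), although the lowest mature luminal and highest stromal arrays met at 8.28.

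Cbx6 gave the opposite pattern. It read 10.85, 10.84, 10.62, 10.94 and 11.11 in MaSC-enriched arrays, 9.94, 9.63, 10.09, 10.81 and 9.82 in luminal progenitor arrays, 9.51, 9.83, 9.70, 10.14 and 9.76 in mature luminal arrays and 11.12, 11.09 and 10.88 in stromal arrays. MaSC-enriched and stromal arrays shared the upper range, and of the 10 luminal arrays only the luminal progenitor array of pool 4 entered it. Cbx6 was higher in MaSC-enriched than in luminal progenitor cells by 1.89-fold (0.92 ± 0.13, adjusted p = 2.49e-05) and than in mature luminal cells by 2.17-fold (1.12 ± 0.13, adjusted p = 1.19e-06). In the second batch these differences were 0.71 and 1.08, against 0.88 and 1.09 in the first. Luminal progenitor and mature luminal cells were 2.21-fold and 2.54-fold lower than stroma (-1.15 ± 0.12, adjusted p = 4.81e-07, and -1.35 ± 0.11, adjusted p = 2.21e-08), while MaSC-enriched cells differed from stroma by -0.23 ± 0.13 (adjusted p = 0.212). The other Cbx6 probe, above background on 9 arrays, gave 0.21 and 0.39 for MaSC-enriched against luminal progenitor and mature luminal cells, and the average of the probes was not called in the first of these.

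Phc2 read 11.52, 11.61, 12.38, 11.95 and 12.06 in MaSC-enriched arrays, 11.63, 11.37, 12.01, 12.73 and 11.84 in luminal progenitor arrays, 12.11, 12.07, 11.82, 11.98 and 12.24 in mature luminal arrays and 11.02, 11.08 and 10.79 in stromal arrays. All 15 epithelial arrays lay above the 3 stromal arrays. The log2 fold changes over stroma were 0.81 ± 0.16, 0.71 ± 0.16 and 1.00 ± 0.15 in MaSC-enriched, luminal progenitor and mature luminal cells (adjusted p = 0.000686, 0.00142 and 2.16e-05). The luminal progenitor call was lost with cyclic loess normalization (0.47, adjusted p = 0.0312) and without the 4 arrays with high endothelial markers (0.56, where the fold-change fell below 1.5).

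The remaining PRC1 genes changed less. Ring1 was called higher than stroma in luminal progenitor cells (0.69 ± 0.16, adjusted p = 0.00205) and in mature luminal cells (0.71 ± 0.15, adjusted p = 0.000776), with 9.50 to 10.23 and 9.57 to 10.12 against 9.02 to 9.28. Without stromal replicate 2 the luminal progenitor difference was 0.58 and no longer past the fold threshold. Both Ring1 calls were lost with cyclic loess normalization (0.51 and 0.47) and with averaged probes (0.49 and 0.42). Cbx8 was 1.77-fold lower in MaSC-enriched than in mature luminal cells (-0.82 ± 0.18, adjusted p = 0.00174), at 6.47 to 7.39 against 7.49 to 8.15 with no overlap, and by -0.79 in the first and -0.90 in the second batch. Fitted on the first batch alone, Cbx8 was not called (adjusted p = 0.0905). Cbx2, Cbx7, Phc1 and Rnf2 were called in no comparison. Phc1 was higher in all 5 MaSC-enriched arrays (10.10 to 10.62) than in all 5 luminal progenitor arrays (9.76 to 10.06), but the difference of 0.48 ± 0.11 (adjusted p = 0.00246) was below the fold threshold, whereas a second Phc1 probe was called in that comparison (0.98, adjusted p = 9.56e-05). Cbx7 ranged from 7.40 to 9.14 and Cbx2, above background on 14 arrays, from 4.86 to 6.53 over all 18 arrays.

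Rnf2 split by hybridization batch rather than by subset. Its batch means were 8.40, 8.28 and 8.38 in the MaSC-enriched, luminal progenitor and mature luminal arrays of the first batch and 5.90, 5.88 and 5.91 in those of the second. The 3 stromal arrays, all of the first batch, read 9.07, 9.06 and 8.78. The fitted differences from stroma, -1.05 ± 0.43, -0.90 ± 0.41 and -0.94 ± 0.38 (adjusted p = 0.0794, 0.115 and 0.0766), therefore mix arrays of both levels. Batch and mouse pool cannot be told apart here.

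**Figure D2:**
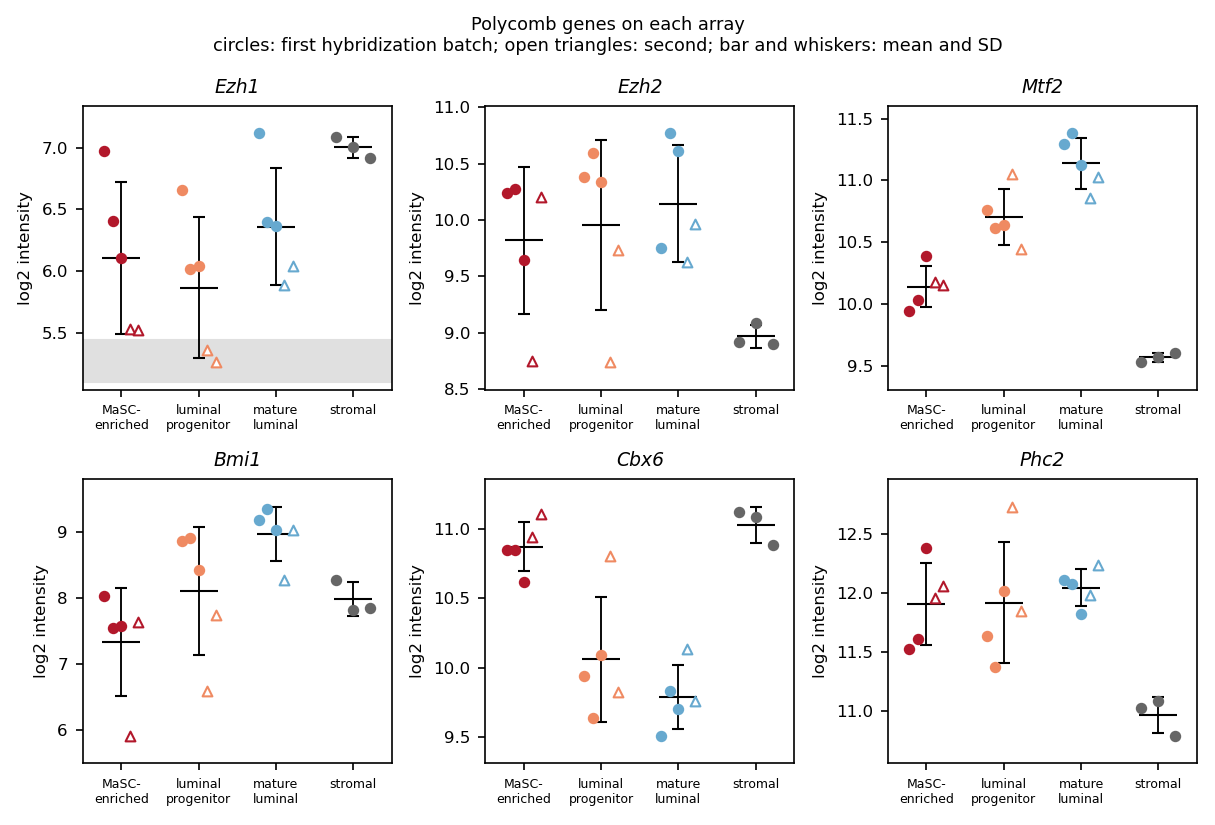
Log2 intensity (vertical axis) of Ezh1, Ezh2, Mtf2, Bmi1, Cbx6 and Phc2 on each array of the 4 subsets, with the mean and SD, filled circles for the first and open triangles for the second hybridization batch, and a gray band at the background level where it is in range. Mtf2 and Bmi1 are highest in mature luminal cells, Cbx6 is high in MaSC-enriched and stromal cells, and Ezh1 is lower on the triangles than on most circles.

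DNA methyltransferases came next. Dnmt1, the enzyme that copies methylation onto newly replicated DNA, read 10.09, 11.23, 11.19, 10.43 and 10.71 in MaSC-enriched arrays, 10.99, 11.36, 11.36, 11.74 and 10.93 in luminal progenitor arrays, 11.04, 11.66, 11.54, 11.16 and 11.21 in mature luminal arrays and 9.46, 9.66 and 9.16 in stromal arrays. Every epithelial array exceeded every stromal array, and the MaSC-enriched array was the lowest of the 3 epithelial arrays in each pool. Dnmt1 was 2.41-fold higher in MaSC-enriched cells than in stroma (1.27 ± 0.18, adjusted p = 1.59e-05), 3.29-fold in luminal progenitor cells (1.72 ± 0.17, adjusted p = 2.01e-07), as well as 3.70-fold in mature luminal cells (1.89 ± 0.16, adjusted p = 2.22e-08). MaSC-enriched cells were 1.53-fold lower than mature luminal cells (-0.61 ± 0.18, adjusted p = 0.0128; -0.57 in the first and -0.61 in the second batch), just past the threshold. That call was lost without MaSC-enriched replicate 1 (-0.44, adjusted p = 0.0796), MaSC-enriched replicate 4 (-0.57), mature luminal replicate 2 (-0.54) or mature luminal replicate 3 (-0.54), in the first batch alone and with cyclic loess normalization.

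Dnmt3b, which sets new methylation, read 9.66, 9.36, 9.69, 10.005 and 9.89 in MaSC-enriched arrays, 9.76, 9.77, 9.998, 10.73 and 10.28 in luminal progenitor arrays, 9.05, 9.72, 9.68, 10.65 and 9.64 in mature luminal arrays and 8.87, 8.96 and 8.96 in stromal arrays. No epithelial array overlapped the stromal range. It was higher than stroma by 0.68 ± 0.17, 0.97 ± 0.16 and 0.64 ± 0.15 in MaSC-enriched, luminal progenitor and mature luminal cells (adjusted p = 0.00504, 0.000124 and 0.00313). Without mature luminal replicate 4 the last difference was 0.57, below the fold threshold, and with the pool as a fixed block the MaSC-enriched and mature luminal differences were 0.57 and 0.56, also below it. Cyclic loess normalization lost the mature luminal call (0.40, adjusted p = 0.061). The second Dnmt3b probe, above background on 10 arrays, gave -0.19, -0.20 and 0.05. With averaged probes the differences from stroma were 0.24 (adjusted p = 0.195), 0.38 and 0.35, and none was called. Dnmt3a, the other enzyme that sets new methylation, read 4.63, 4.63, 4.84, 4.63 and 4.59 in MaSC-enriched arrays, 4.58, 4.65, 4.49, 4.57 and 4.57 in luminal progenitor arrays, 4.51, 4.57, 4.82, 4.52 and 5.55 in mature luminal arrays and 4.64, 4.61 and 4.58 in stromal arrays. Only mature luminal array 5 was above background, so no difference of Dnmt3a could be measured here.

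The TET enzyme Tet1 set the MaSC-enriched subset apart. It read 9.14, 8.68, 7.81, 8.82 and 8.55 in MaSC-enriched arrays, 7.74, 7.50, 7.57, 7.25 and 6.79 in luminal progenitor arrays, 6.83, 7.25, 7.22, 7.88 and 6.74 in mature luminal arrays and 8.05, 7.61 and 8.07 in stromal arrays. In every pool Tet1 was highest, among epithelial arrays, in the MaSC-enriched one. It was 2.19-fold higher in MaSC-enriched than in luminal progenitor cells (1.13 ± 0.23, adjusted p = 0.000745; 0.94 in the first and 1.67 in the second batch) and exceeded mature luminal cells 2.83-fold (1.5003 ± 0.22, adjusted p = 2.25e-05; 1.44 and 1.38). Its differences from stroma were smaller, with overlapping arrays: 0.79 ± 0.22 in MaSC-enriched cells (adjusted p = 0.0094) and -0.71 ± 0.19 in mature luminal cells (adjusted p = 0.00834). The MaSC-enriched one was lost without MaSC-enriched replicate 1 (0.57, adjusted p = 0.1) or stromal replicate 2 (0.57, adjusted p = 0.112), the mature luminal one without mature luminal replicate 1 (-0.54, adjusted p = 0.0543). Tet3 was above background on 10 arrays (4.73 to 5.63) and was called in no comparison.

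**Figure D3:**
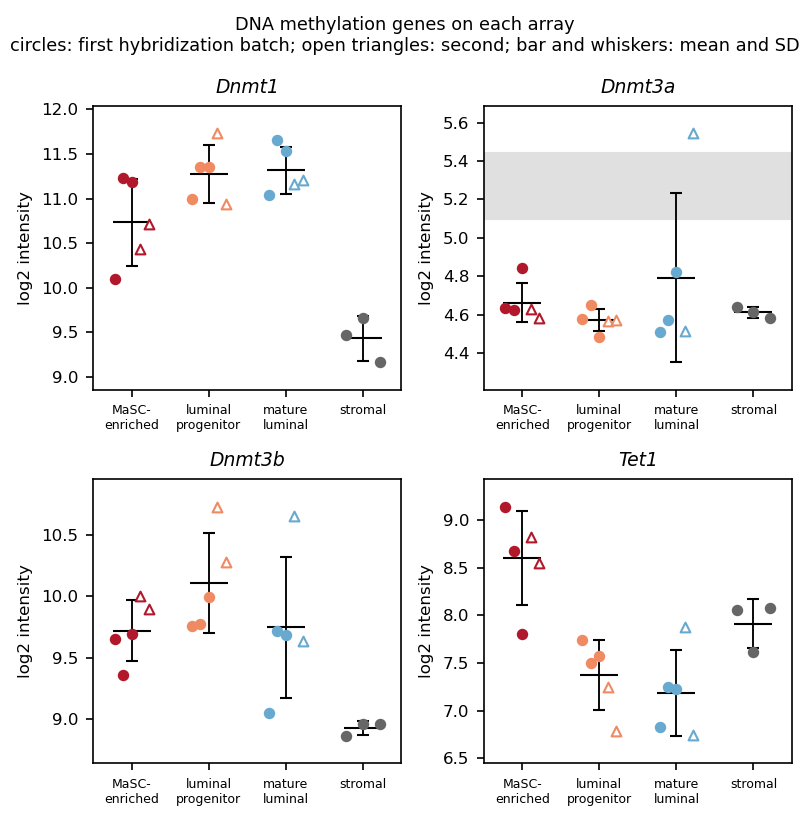
Log2 intensity (vertical axis) of Dnmt1, Dnmt3a, Dnmt3b and Tet1 on each array of the 4 subsets, with the mean and SD, filled circles for the first and open triangles for the second hybridization batch, and a gray band at the background level. Dnmt1 and Dnmt3b are above stroma on all 15 epithelial arrays, Tet1 is highest in MaSC-enriched cells, and Dnmt3a lies below the band on 17 of 18 arrays.

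Sequence was examined next for Ezh2, Suz12, Phf19, Dnmt1 and the other genes with a promoter entry. The promoters of 30 of the 34 genes (42 windows of 300 bases, from 250 before to 50 after the start, RefSeq on GRCm38.p6) were searched on both strands for TTTCCCGC, TTTCGCGC, TTTGCCGC and TTTGGCGC, the letters known for E2F factors, which drive genes of DNA replication. These 4 genes were the only ones with a match. Of all 32851 promoter windows, 2.26% held one. Counted by gene, with a match in any window of the gene, 5 of the 16 proliferation genes with a promoter entry held one (31.2%). A share of genes and a share of windows are unlike measures, since a gene can have several windows. Of the 8 genes higher than stroma in all 3 epithelial subsets, 7 had a promoter entry and 3 of these a match, and of the genes called in no comparison 11 had an entry and none a match. Among the other called genes with an entry, Phf19 had a match, while Ezh1, Mtf2, Bmi1, Ring1, Cbx6, Cbx8, Tet1, Hdac4, Hdac5 and Hdac7 had none. Differences between these groups of genes were not tested. A match describes letters and does not show binding. The windows are shown with the matched letters in capitals because they are the sequence that sets these 4 genes apart from the other members, at chr6:47594981-47595280 (minus strand) for Ezh2, chr11:79992856-79993155 (plus) for Suz12, chr2:34913927-34914226 (minus) for Phf19 and chr9:20952574-20952873 (minus) for Dnmt1, each read 5′ to 3′ along the gene.
Ezh2: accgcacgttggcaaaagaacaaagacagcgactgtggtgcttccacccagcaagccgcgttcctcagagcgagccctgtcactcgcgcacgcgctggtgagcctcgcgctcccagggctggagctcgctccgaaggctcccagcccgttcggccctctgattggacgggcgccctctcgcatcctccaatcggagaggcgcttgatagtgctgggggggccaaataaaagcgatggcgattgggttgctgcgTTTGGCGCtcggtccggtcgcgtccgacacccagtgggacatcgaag
Suz12: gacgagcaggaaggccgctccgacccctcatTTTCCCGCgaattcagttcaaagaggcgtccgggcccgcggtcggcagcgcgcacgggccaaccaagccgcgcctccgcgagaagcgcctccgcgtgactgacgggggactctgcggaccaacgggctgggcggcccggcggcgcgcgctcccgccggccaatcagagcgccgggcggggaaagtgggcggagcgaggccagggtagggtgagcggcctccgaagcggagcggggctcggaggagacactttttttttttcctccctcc
Phf19: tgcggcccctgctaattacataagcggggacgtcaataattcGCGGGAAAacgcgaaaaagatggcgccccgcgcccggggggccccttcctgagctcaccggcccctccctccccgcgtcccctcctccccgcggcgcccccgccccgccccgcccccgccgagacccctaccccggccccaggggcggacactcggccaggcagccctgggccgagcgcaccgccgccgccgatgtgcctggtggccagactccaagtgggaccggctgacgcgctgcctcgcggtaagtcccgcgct
Dnmt1: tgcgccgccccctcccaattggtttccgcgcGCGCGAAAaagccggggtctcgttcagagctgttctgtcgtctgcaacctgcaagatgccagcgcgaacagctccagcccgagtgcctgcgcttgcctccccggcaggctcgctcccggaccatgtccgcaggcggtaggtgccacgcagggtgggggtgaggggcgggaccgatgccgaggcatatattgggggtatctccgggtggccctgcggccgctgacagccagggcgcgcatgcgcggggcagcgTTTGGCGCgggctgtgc

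In Ezh2 the match lies just after the annotated start, at bases 254 to 261 of the window. In Suz12 and Phf19 it lies upstream, at bases 32 to 39 and 43 to 50, and in Phf19 it reads on the other strand. Dnmt1 has 3 promoter windows, of which 1 holds matches, at bases 32 to 39 on the other strand and 284 to 291 as read along the gene. Levels of cell division genes were higher than stroma in the same comparisons as Ezh2, Suz12 and Dnmt1. So were Phc2, Dnmt3b, Hdac6 and Hdac11, whose promoters held no match. Of all genes, 9.69% were higher than stroma in all 3 epithelial subsets. Of 18 proliferation genes tested, 16 were called higher than stroma in each epithelial subset, with median log2 fold changes of 1.92, 2.14 and 2.38 in MaSC-enriched, luminal progenitor and mature luminal cells, and none was called in either direction among the epithelial subsets. Their mean ranged from 8.25 to 10.13 in MaSC-enriched, 8.49 to 10.01 in luminal progenitor and 8.41 to 10.11 in mature luminal arrays, against 6.89 to 7.84 in stroma. Pool 1 had the lowest proliferation mean of each subset. Dnmt1 was lowest on the pool 1 array of the MaSC-enriched and mature luminal subsets but not of the luminal progenitor or stromal subset. Ezh2 was lowest on the pool 1 array of no subset. Its lowest MaSC-enriched, luminal progenitor and mature luminal values, 8.75, 8.74 and 9.62, were on the arrays of pool 4. How much of the stromal difference in Ezh2, Suz12 and Dnmt1 goes with cell division was not tested.

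Among the class I deacetylases, nuclear enzymes that work within corepressor complexes, Hdac3 differed. It ranged from 11.77 to 12.24 in MaSC-enriched, 12.05 to 12.62 in luminal progenitor and 11.79 to 12.38 in mature luminal arrays, against 11.07 to 11.31 in stroma. Its log2 fold changes over stroma were 0.75 ± 0.11, 0.98 ± 0.10 and 0.77 ± 0.10 (adjusted p = 1.83e-05, 3.70e-07 and 3.02e-06). The MaSC-enriched and mature luminal ones fell below the fold threshold with cyclic loess normalization (0.57 and 0.50) and when the probes were averaged (0.43 and 0.45). Hdac2 ranged from 11.96 to 12.95 over the epithelial arrays and from 12.57 to 12.80 in stroma, and was not called, although a second, dimmer Hdac2 probe was called higher than stroma in all 3 subsets (0.87, 0.89 and 0.91). Hdac8, at 7.07 to 8.44 over all arrays, was not called.

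Class IIa deacetylases carry little enzyme activity of their own, move between cytoplasm and nucleus, and hold Mef2 transcription factors in check. Hdac4 was high in MaSC-enriched and stromal cells, as Cbx6 was. Hdac4 read 9.21, 9.11, 8.81, 9.86 and 9.47 in MaSC-enriched arrays, 8.08, 8.46, 8.20, 8.98 and 7.90 in luminal progenitor arrays, 8.14, 7.99, 8.25, 8.63 and 8.01 in mature luminal arrays and 9.01, 9.25 and 9.64 in stromal arrays. In every pool the MaSC-enriched array exceeded both luminal arrays, and all luminal arrays lay below all stromal arrays. Hdac4 was 2.01-fold higher in MaSC-enriched than in luminal progenitor cells (1.01 ± 0.17, adjusted p = 0.000109; 0.80 in the first and 1.22 in the second batch) and exceeded mature luminal cells 2.10-fold (1.07 ± 0.16, adjusted p = 3.21e-05; 0.92 and 1.34). Luminal progenitor and mature luminal cells were 2.07-fold and 2.15-fold lower than stroma (-1.05 ± 0.15, adjusted p = 2.45e-05, and -1.11 ± 0.14, adjusted p = 5.56e-06). A second Hdac4 probe, above background on 4 arrays, gave -0.21 and -0.18 for MaSC-enriched against luminal progenitor and mature luminal cells, and averaging both probes lost these calls (0.40 and 0.44). Fibroblast markers, highest in stroma, were also higher in MaSC-enriched than in mature luminal cells for 6 of 7 genes and than in luminal progenitor cells for 2 of 7. Their mean was 9.10 to 11.08 in MaSC-enriched, 8.57 to 9.61 in luminal progenitor and 6.95 to 8.44 in mature luminal arrays, against 13.42 to 13.69 in stroma, and their part in the Cbx6, Tet1 and Hdac4 differences was not tested. Mef2c, the partner with the largest difference among 3 Mef2 genes tested, was higher in MaSC-enriched than in luminal progenitor (3.29, adjusted p = 7.51e-06) and mature luminal cells (3.56, adjusted p = 1.46e-06). Mef2b (-0.35 and -0.36) and Mef2d (-0.20 and 0.06) were not called in either comparison.

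Hdac5 was the one gene higher in luminal progenitor than in mature luminal cells. It read 11.58, 10.996, 11.18, 11.65 and 11.80 in MaSC-enriched arrays, 12.01, 11.75, 11.30, 10.94 and 11.86 in luminal progenitor arrays, 11.29, 10.69, 10.88, 11.62 and 11.42 in mature luminal arrays and 10.76, 10.32 and 10.82 in stromal arrays. Luminal progenitor arrays were above mature luminal arrays in 4 of 5 pools and below in pool 4, by 0.73 on average in the first batch and -0.12 in the second. In pool 4 the luminal progenitor and mature luminal arrays had nearly equal luminal progenitor marker means, 11.89 and 11.88. What this adds to the Hdac5 values was not tested. The difference of 0.63 ± 0.18 (adjusted p = 0.00963) was lost without luminal progenitor replicate 1 (0.47, adjusted p = 0.0952), luminal progenitor replicate 2 (0.56), mature luminal replicate 2 (0.49, adjusted p = 0.062) or mature luminal replicate 3 (0.55), and without array weights (0.39, adjusted p = 0.195). Over stroma Hdac5 was 1.72-fold higher in MaSC-enriched cells (0.78 ± 0.18, adjusted p = 0.00272) and 2.14-fold higher in luminal progenitor cells (1.10 ± 0.18, adjusted p = 6.40e-05), with no overlap. Mature luminal cells differed from stroma by 0.47 ± 0.16 (adjusted p = 0.0369), below the fold threshold. Hdac9 was above background on 5 arrays, the highest being luminal progenitor array 4 (6.64), and was not called.

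Hdac7 was highest in stroma. It read 8.47, 8.33, 10.13, 10.05 and 7.88 in MaSC-enriched arrays, 8.56, 8.30, 8.80, 9.55 and 8.03 in luminal progenitor arrays, 9.04, 8.64, 8.85, 8.72 and 8.70 in mature luminal arrays and 11.17, 11.10 and 11.29 in stromal arrays. All epithelial arrays were below all stromal arrays, and the highest epithelial arrays were MaSC-enriched 3 and 4 and luminal progenitor 4. Hdac7 was 4.98-fold lower than stroma in MaSC-enriched cells (-2.32 ± 0.26, adjusted p = 7.91e-07), 6.23-fold lower in luminal progenitor cells (-2.64 ± 0.24, adjusted p = 7.65e-08), as well as 5.15-fold lower in mature luminal cells (-2.36 ± 0.23, adjusted p = 1.31e-07). In the mouse Hdac7 is known from the lining of blood vessels. The 3 arrays with the most Hdac7 outside stroma were among the 4 with the highest endothelial marker means, and the remaining one, luminal progenitor 3, read 8.80 for Hdac7 with an endothelial mean of 9.89. Of the endothelial markers, 5 or 6 of 6 were above background on every array, and their mean in stroma was 8.73 to 9.58, against 8.30 to 11.55 in MaSC-enriched, 6.79 to 10.54 in luminal progenitor and 7.73 to 8.55 in mature luminal arrays. Tek alone was highest in stroma, at 12.71 against 9.62, 8.65 and 7.68 in these subsets. Pecam1, Cdh5, Kdr, Emcn and Esam averaged lower in stroma than in MaSC-enriched cells, and higher than in either luminal subset. Without those 4 arrays MaSC-enriched, luminal progenitor and mature luminal cells differed from stroma by -2.82, -2.72 and -2.33 (adjusted p = 6.07e-10, 2.90e-10 and 4.85e-10). Hdac7 was not called between epithelial subsets, and the part of endothelial cells, which the CD31 antibody of the sort targets, in its values was not tested.

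The class IIb enzymes have substrates outside chromatin: Hdac6 deacetylates tubulin in the cytoplasm, and Hdac10 acts on polyamines. Hdac6 read 9.09, 8.59, 8.63, 8.52 and 8.18 in MaSC-enriched arrays, 8.73, 8.85, 8.72, 7.81 and 8.31 in luminal progenitor arrays, 9.14, 9.28, 9.52, 8.48 and 8.88 in mature luminal arrays and 7.02, 7.22 and 6.80 in stromal arrays. All epithelial arrays lay above all stromal arrays. Hdac6 was 3.14-fold, 3.11-fold and 4.47-fold higher than stroma in MaSC-enriched, luminal progenitor and mature luminal cells (1.65 ± 0.16, 1.64 ± 0.16 and 2.16 ± 0.15, adjusted p = 1.93e-07, 1.13e-07 and 9.94e-10). MaSC-enriched and luminal progenitor cells were below mature luminal cells by -0.51 ± 0.16 and -0.52 ± 0.16 (adjusted p = 0.0227 and 0.0155), short of the fold threshold.

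Hdac10 was low in the MaSC-enriched subset. Its range was 6.97 to 7.66 in MaSC-enriched arrays, 7.59 to 9.05 in luminal progenitor arrays, 7.94 to 8.10 in mature luminal arrays and 8.03 to 8.39 in stromal arrays. MaSC-enriched cells were 1.61-fold below luminal progenitor cells (-0.69 ± 0.16, adjusted p = 0.00199; -0.54 in the first and -1.39 in the second batch), 1.77-fold below mature luminal cells (-0.83 ± 0.15, adjusted p = 0.000221; -0.80 and -0.74) and 1.88-fold below stroma (-0.91 ± 0.15, adjusted p = 7.85e-05). In pool 3 the MaSC-enriched array (7.66) was slightly above the luminal progenitor array (7.59), and with cyclic loess normalization the luminal progenitor difference was -0.58, below the fold threshold.

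Hdac11, the only class IV enzyme, which removes fatty acyl groups from proteins more readily than acetyl groups, had the largest differences of all 32 genes. It read 7.90, 7.54, 8.12, 8.77 and 8.01 in MaSC-enriched arrays, 9.67, 9.19, 9.31, 9.84 and 9.55 in luminal progenitor arrays, 10.87, 10.004, 10.26, 10.35 and 10.64 in mature luminal arrays and 6.94, 5.98 and 7.03 in stromal arrays. No 2 subsets overlapped, in the order mature luminal, luminal progenitor, MaSC-enriched and stroma, and the order held in each pool. Over stroma Hdac11 was 2.63-fold higher in MaSC-enriched cells (1.40 ± 0.22, adjusted p = 6.26e-05), 7.37-fold in luminal progenitor cells (2.88 ± 0.21, adjusted p = 3.29e-09), as well as 14.2-fold in mature luminal cells (3.83 ± 0.20, adjusted p = 2.56e-11). Within the epithelium it was 2.80-fold lower in MaSC-enriched than in luminal progenitor cells (-1.49 ± 0.23, adjusted p = 5.42e-05; -1.54 in the first and -1.31 in the second batch). It was 5.41-fold lower in MaSC-enriched than in mature luminal cells (-2.44 ± 0.22, adjusted p = 5.87e-08; -2.52 and -2.10) and 1.93-fold lower in luminal progenitor than in mature luminal cells (-0.95 ± 0.21, adjusted p = 0.00177; -0.99 and -0.79). Hdac11 was the only one of the 32 genes called in all 6 comparisons, as 1.64% of all genes were.

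**Figure D4:**
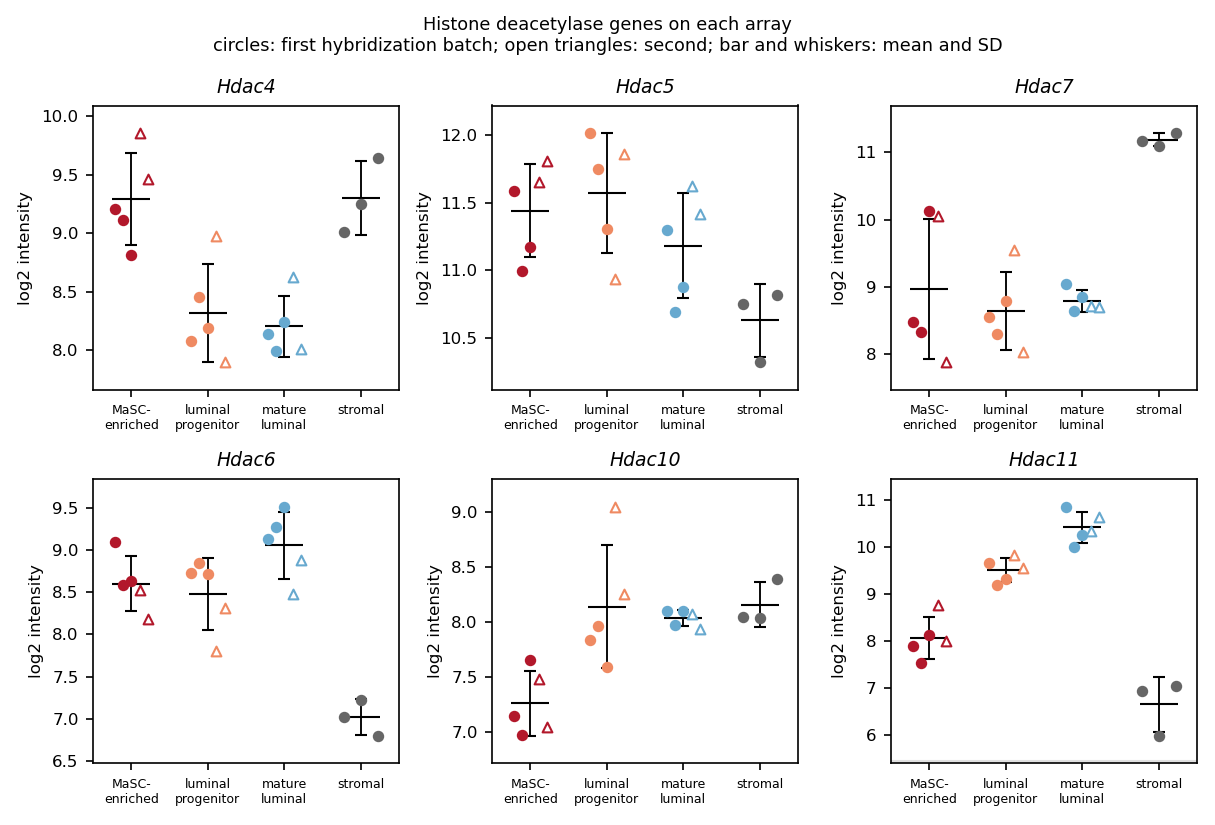
Log2 intensity (vertical axis) of Hdac4, Hdac5, Hdac7, Hdac6, Hdac10 and Hdac11 on each array of the 4 subsets, with the mean and SD, filled circles for the first and open triangles for the second hybridization batch. Hdac11 steps up across MaSC-enriched, luminal progenitor and mature luminal cells, Hdac7 is above 11 in stroma alone, and Hdac6 is lowest in stroma.

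Seen by subset, Cbx6, Tet1 and Hdac4 were called higher, and Bmi1, Hdac10 and Hdac11 lower, in MaSC-enriched cells than in both luminal subsets. These 3 and 3 of 32 (9.38% each) are near the 9.66% and 8.17% of all genes. No gene of the 32 was called higher or lower in luminal progenitor cells than in both other epithelial subsets, where 2.1% and 0.778% of all genes were. Hdac11 alone was called higher, and none lower, in mature luminal cells than in both others, against 3.22% and 3.74% of all genes. Of the 17 calls within the epithelium, 16 had the same sign in both hybridization batches, and the exception was Hdac5. For 16 of the genes at least 1 other probe was kept. Across the called comparisons of these genes the other probes had the same sign in 29 of 34 cases and were themselves called in the same direction in 12.

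**Figure D5:**
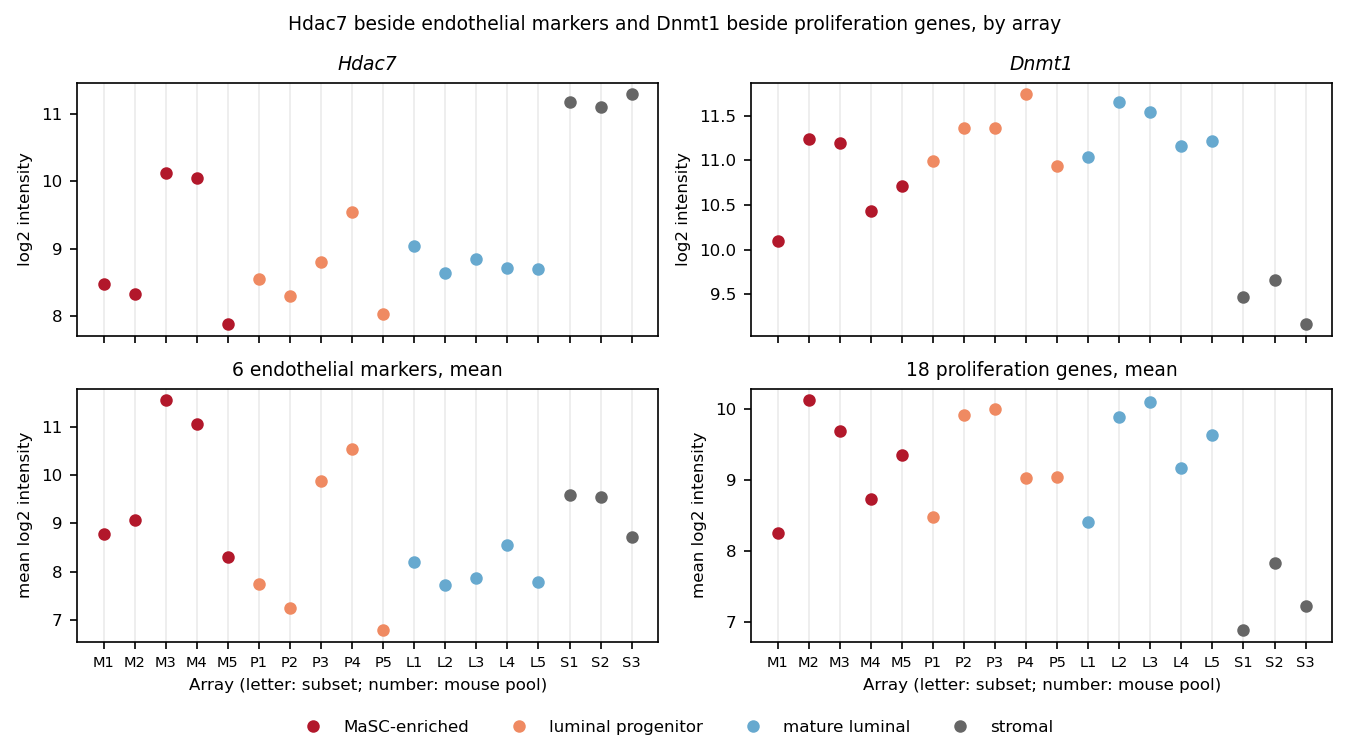
Log2 intensity of Hdac7 and of Dnmt1 (upper panels) above the mean log2 intensity of 6 endothelial markers and of 18 proliferation genes (lower panels), for each of the 18 arrays (horizontal axis; M for MaSC-enriched, P for luminal progenitor, L for mature luminal, S for stromal, with the pool number). Arrays M3, M4, P3 and P4 hold the 4 highest endothelial means, M3, M4 and P4 hold the highest Hdac7 values outside stroma, and the stromal arrays are lowest for Dnmt1 and for the proliferation mean.

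Other genes of these pathways were taken from lists of partners. Of 19 other Polycomb genes tested, 3 were higher and 1 lower in MaSC-enriched than in luminal progenitor cells, 3 higher and 2 lower than in mature luminal cells, and 1 was lower in luminal progenitor than in mature luminal cells. Against stroma, 7 were higher and 1 lower in MaSC-enriched cells, 4 higher and 2 lower in luminal progenitor cells and 7 higher and none lower in mature luminal cells. In the comparisons of MaSC-enriched with luminal progenitor and mature luminal cells and of mature luminal cells with stroma, the shares called (21.1%, 26.3% and 36.8%) were near those of all genes (22.2%, 27.5% and 38.3%), and for MaSC-enriched cells against stroma 42.1% stood beside 30.4%. For luminal progenitor cells the shares were 5.26% against mature luminal cells and 31.6% against stroma, beside 11.1% and 36.3% of all genes. Pcgf6, a Bmi1 relative of a variant PRC1, exceeded stroma by 1.65, 1.64 and 1.75 on the log2 scale in MaSC-enriched, luminal progenitor and mature luminal cells (adjusted p = 8.71e-08, 4.73e-08 and 7.63e-09). Bap1, the enzyme that removes the ubiquitin placed by PRC1, exceeded it by 1.11, 1.06 and 1.15 (adjusted p = 3.44e-06, 3.37e-06 and 5.19e-07). Phc3, another polyhomeotic gene, was lower in MaSC-enriched than in luminal progenitor (-0.64, adjusted p = 0.00797) and mature luminal cells (-0.87, adjusted p = 0.000369). Scmh1, a protein that associates with PRC1, was higher in mature luminal than in luminal progenitor cells (luminal progenitor minus mature luminal -1.05, adjusted p = 1.84e-05).

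Genes that oppose Polycomb were examined in the same way. Of 11 H3K27 demethylase and trithorax genes, 1 was lower in MaSC-enriched than in mature luminal cells, Kmt2b (-0.60, adjusted p = 0.00649), and none was called in the other epithelial comparisons. That is 9.09% of the list, against 27.5% of all genes, although 7 of the 11 had an unadjusted p below 0.05 there. Over stroma 2, 4 and 3 were higher and none lower in MaSC-enriched, luminal progenitor and mature luminal cells (18.2%, 36.4% and 27.3%, against 30.4%, 36.3% and 38.3% of all genes). The largest was Dpy30, a core subunit of the histone H3 lysine 4 methyltransferases, at 0.82, 1.05 and 1.13 (adjusted p = 2.38e-05, 5.82e-07 and 9.03e-08). Ash2l and Wdr5, of the same enzymes, gave 0.64 and 0.73 in luminal progenitor cells (adjusted p = 0.000503 and 0.000262).

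Among 10 readers and partners of DNA methylation, 20%, 40% and 30% were called between MaSC-enriched, luminal progenitor or mature luminal cells and stroma, against 30.4%, 36.3% and 38.3% of all genes, and Dnmt3l and Uhrf1 lay at opposite ends. Dnmt3l, an inactive partner of the enzymes that set new methylation, was above background on 3 of 5 MaSC-enriched arrays, on no luminal progenitor or mature luminal array and on all 3 stromal arrays (8.46 to 8.55). Against the background level it was at least 9.73-fold lower in luminal progenitor and at least 10.1-fold lower in mature luminal cells than in stroma (adjusted p = 3.09e-13 and 1.52e-13). In MaSC-enriched cells the difference was -3.28 (adjusted p = 1.96e-12). Uhrf1, which recruits Dnmt1 to replicated DNA, exceeded stroma by 2.33, 2.61 and 2.49 in MaSC-enriched, luminal progenitor and mature luminal cells (adjusted p = 7.34e-05, 1.16e-05 and 8.91e-06) and was not called within the epithelium, where its values spread from 10.68 to 13.09. Mbd1, a reader of methylated DNA, was highest in luminal progenitor cells: MaSC-enriched cells were lower (-0.95, adjusted p = 0.000397), and luminal progenitor exceeded mature luminal cells by 0.84 (adjusted p = 0.000543). Tdg, a glycosylase that excises oxidized methylcytosine, exceeded stroma by 1.01 in mature luminal cells (adjusted p = 2.38e-05).

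Of 20 deacetylase corepressor genes, 3 were lower in MaSC-enriched than in luminal progenitor cells and none higher, and 4 were lower and 1 higher than in mature luminal cells (15% and 25% called, against 22.2% and 27.5% of all genes). Mta3, a subunit of the NuRD complex, was lower in MaSC-enriched than in luminal progenitor (-0.77, adjusted p = 2.60e-05) and mature luminal cells (-1.05, adjusted p = 2.62e-07). Chd3, a remodeling enzyme of the same complex, was lower than in luminal progenitor by -0.65 (adjusted p = 0.0102) and than in mature luminal cells by -1.28 (adjusted p = 9.87e-06). Rcor2, a CoREST subunit, was lower in MaSC-enriched than in mature luminal cells by -1.23 (adjusted p = 0.00136). Sap30, of the Sin3 complex, exceeded stroma by 2.57, 2.38 and 2.49 in MaSC-enriched, luminal progenitor and mature luminal cells (adjusted p = 5.43e-09, 7.97e-09 and 1.63e-09), where 3, 4 and 7 corepressor genes were higher and 1, none and none lower (20%, 20% and 35% called, against 30.4%, 36.3% and 38.3% of all genes).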

How the data were processed

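RNA of 18 sorted pools was hybridized to Illumina MouseWG-6 BeadChips. The authors exported probe profiles from BeadStudio, background corrected them with normexp, quantile normalized them with control probes in limma (neqc) and deposited log2 values of 45281 probes, used here as they are. A second deposited table of intensities before normalization was not used, since its 36 columns carry running numbers that name no sample; no column was assigned. Column medians were 5.27 to 5.29. Arrays have no read depth, and their number limits the precision.

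Background per array was the median plus the upper 1% normal point times the median absolute deviation of 1506 olfactory and vomeronasal receptor probes. A probe was kept if at least 1 array exceeded it, which left 35585 (78.6%), among them 660 of the 1506. Names came from the platform table (34885 probes with 1 symbol, 18 with several, 10378 with none), and a gene is its brightest kept probe. In R 4.3.3, limma 3.58.1 (with statmod 1.5.0) fitted 1 mean per subset with array weights and the pool as random block (correlation 0.263), then empirical Bayes. Adjusted p-values are Benjamini-Hochberg over all kept probes and 6 contrasts together, called at an FDR of 0.05 with at least a 1.5-fold change; folds are first-named over second. The pools come from the labels. Residuals correlated by a median of 0.414 within pools, 0.03 between pools of a batch and -0.204 between batches. Pools are separate animals, but p-values rest on few of them. No arrays were identical. Where a whole subset was below background, folds are bounds against the background level.

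Every listed gene is accounted for. Values on every array are given for genes called with a log2 fold change of at least 1 and for Ezh1, Ezh2, Bmi1, Dnmt1, Dnmt3a and Dnmt3b; up to 4 genes of each partner list are named by size. The members, lists and motif letters were chosen with earlier results of these data known. Tried instead were: keeping every probe, requiring 3 arrays above background, equal weights, no block, pool, BeadChip or batch as fixed terms, each batch alone, epithelial arrays alone, adjustment per contrast, treat, cyclic loess, averaged probes, each array left out, and luminal progenitor arrays 3 and 4 left out. Leaving out 4 arrays together was added after seeing the data.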

Additional observations from a re-analysis of the deposited data

Results flagged for a closer look

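In each subset with 5 arrays, a value was marked when its gap to the nearest other array was too large a share of the range for a sample of that size by Dixon's criterion. Of 96 gene and subset pairs examined, 2 were marked, where chance marks about 1 in 20. Bmi1 on MaSC-enriched array 4 read 5.91, against 7.55 to 8.03 on the other 4 MaSC-enriched arrays. Luminal progenitor and mature luminal arrays of the same pool were also the lowest of their subsets, at 6.59 and 8.28. Without this array Bmi1 remained called lower in MaSC-enriched cells than in both luminal subsets. Dnmt3a on MaSC-enriched array 3 read 4.84, against 4.59 to 4.63 on the others, but all 5 are below background, so these values have no order.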

How the results depend on the processing

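Of 17 calls between epithelial subsets, each tried under 34 alternatives, 1 held throughout (Hdac11, MaSC-enriched against mature luminal cells), and of 45 calls against stroma, each tried under 32, 22 did. Of all 62, 53 held without each array in turn. Of 2018 values under alternatives, 1897 kept their direction and call and 120 kept the direction but not the call. One reversed: Hdac5, luminal progenitor minus mature luminal, was -0.12 in the second batch alone. Counts without each array ranged from 6 to 7 for MaSC-enriched against luminal progenitor cells, 8 to 9 against mature luminal cells and 12 to 16 against stroma, from 1 to 3 for luminal progenitor against mature luminal cells and 14 to 16 against stroma, and from 15 to 18 for mature luminal cells against stroma. With the second batch alone the epithelial counts were 0, 1 and 0, from 2 arrays per subset. With treat, which tests against the 1.5-fold threshold, they were 1 for MaSC-enriched against luminal progenitor, 0 for luminal progenitor against mature luminal, 4 for MaSC-enriched against stroma and 10 for mature luminal against stroma. Without the replicate block 59 of 62 calls held, and Ezh1 in MaSC-enriched cells (-0.77) and Phf19 in MaSC-enriched (0.96) and mature luminal cells (0.81) against stroma were lost. With the pool as a fixed replicate block 59 held, and Ezh1 in MaSC-enriched cells (-0.54) and Dnmt3b in MaSC-enriched (0.57) and mature luminal cells (0.56) were lost. Treat lost the most, 30 of 62 calls, and the second batch alone kept 1 of 17. Lost with treat in MaSC-enriched against luminal progenitor cells were Hdac10, Bmi1 (adjusted p = 0.36), Cbx6 (adjusted p = 0.096), Tet1 (adjusted p = 0.113) and Hdac4 (adjusted p = 0.0899). Averaging probes lost 15 calls, cyclic loess 10, no array weights 7, and BeadChip as a fixed term or the first batch alone 6 each. Cyclic loess also moved the split of all calls: higher calls were 61.1% (main 49.8%) for MaSC-enriched against mature luminal, 68.2% (57.9%) for luminal progenitor against mature luminal and 45.2% (56.8%) for mature luminal against stroma. It moved the median of all genes by at most 0.06. Dim probes limit Dnmt3a, Phf1 and Hdac9, and 3 stromal arrays of 1 batch limit every stromal comparison.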

Other observations

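Sirtuins, the deacetylases that depend on NAD, were called in 5 of 7 genes between MaSC-enriched and mature luminal cells, 2 higher and 3 lower (71.4%, against 27.5% of all genes). Between MaSC-enriched and luminal progenitor cells 2 of 7 were called (28.6%, against 22.2%), and between mature luminal cells and stroma 4, 2 in each direction (57.1%, against 38.3%). The other comparisons had fewer calls. None was called between MaSC-enriched cells and stroma (0%, against 30.4%) and 1 between luminal progenitor cells and stroma (14.3%, against 36.3%). Between luminal progenitor and mature luminal cells 1 was called (14.3%, against 11.1%). Sirt5, a mitochondrial enzyme that removes succinyl groups, was lower in MaSC-enriched than in luminal progenitor (-1.28, adjusted p = 2.29e-07) and mature luminal cells (-1.48, adjusted p = 1.67e-08). Sirt6, a nuclear enzyme, was lower than in mature luminal cells (-0.75, adjusted p = 0.00378). Sirt1 and Sirt2 were higher in MaSC-enriched than in mature luminal cells, by 0.89 (adjusted p = 0.00439) and 0.70 (adjusted p = 0.000508). Of 10 histone acetyltransferase genes none was called among the epithelial subsets. Of all genes, 22.2% and 27.5% were called for MaSC-enriched against luminal progenitor and mature luminal cells, and 11.1% between the luminal subsets. Against stroma 1 was higher and 1 lower in each epithelial subset (20% each time, against 30.4%, 36.3% and 38.3% of all genes). Hat1, which acetylates newly made histones, exceeded stroma by 0.85, 1.01 and 0.97 in MaSC-enriched, luminal progenitor and mature luminal cells (adjusted p = 0.000115, 1.02e-05 and 7.22e-06). Kat2b was lower by -1.73, -1.28 and -1.39 (adjusted p = 3.92e-05, 0.00054 and 0.000119).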
